A study of Mus musculus with 84 samples.

Results

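The liver makes most circulating complement and coagulation proteins, and 38 genes encoding such proteins were followed across 84 liver RNA sequencing libraries from 14 mouse strains. The genes were chosen by name as plasma complement and coagulation genes of liver, and their count rows were found by pairing gene IDs with symbols in a table deposited with the counts. Of the 38, 37 had a row, among 37310 gene IDs in all, and each of the 37 passed the filter on low counts that left 16195 genes tested. Klkb1, which encodes plasma prekallikrein, was not analysed here.

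For each strain, 3 libraries were made from pregnant females that ate TCDD (2,3,7,8-tetrachlorodibenzo-p-dioxin) at 0.1 µg/kg each day for 10 days. TCDD is a ligand of AHR, the aryl hydrocarbon receptor. A further 3 libraries of each strain came from pregnant females given the peanut butter vehicle. Ages were 6 to 8 weeks when dosing began and 7 to 9 weeks at its end, and no other agent or allele is labelled. The Collaborative Cross gave CC019/TauUnc, and recombinant inbreeding of C57BL/6J with DBA/2J gave BXD-40/TyJ, BXD91/2RwwJ and BXD100/RwwJ. The other strains were NOD/SHILTJ, 129S1/SVIMJ, NZO/HILTJ, FVB/NJ, DBA1/J, BALB/CJ, CBA/J, C3HeB/FeJ, A/J and C57BL6/J. Since no label ties a library to 1 animal, the p-values describe the spread between libraries, part of which may be technical.

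Complement is a cascade of plasma proteins that marks microbes and damaged cells. Lectins or antibodies start it, C3 amplifies it, and the terminal components C5 to C9 assemble a pore in the target membrane. Coagulation runs from the contact and tissue factor arms through factor X and prothrombin to fibrin, held in check by protein C, protein S and antithrombin, and plasmin dissolves the clot. Hepatocytes express most of these genes under factors such as HNF4A and C/EBP, and several, fibrinogen among them, are raised by interleukin-6 in the acute phase.

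Gene counts per library ran from 9122406 to 19689624, with a median of 16202909. The 12 hepatocyte markers were all present, and their counts summed to 68000 to 118000 CPM (counts scaled to a common library total) in TCDD libraries and 66200 to 117000 CPM in vehicle libraries. Cyp1a1 and Cyp1a2, the targets that report AHR activity, summed to 447 to 12500 CPM in TCDD libraries and 297.1 to 1000 CPM in vehicle libraries. In NZO/HILTJ this sum was 447.0 to 780.7 CPM after TCDD and 409.3 to 563.7 CPM with vehicle. In CC019/TauUnc it was 607.0 to 979.6 CPM after TCDD and 447.1 to 1000 CPM with vehicle. The average over strains used below weighs both like the rest. In every other strain TCDD lay above vehicle, except for the library described next. The library labelled C57BL6/J TCDD replicate 3 had the lowest depth, and its Cyp1a1 and Cyp1a2 summed to 481 CPM, against 9250 and 10300 CPM in the other TCDD libraries of that strain and 515 to 592 CPM with vehicle, which goes against its label. A/J vehicle replicate 2 had the highest sum of muscle markers, 1790 CPM, and BXD-40/TyJ vehicle replicate 1 the highest of adrenal cortex markers, 591 CPM. Without A/J vehicle replicate 2, BXD-40/TyJ vehicle replicate 1 or the library labelled C57BL6/J TCDD replicate 3, left out in turn, the average call of C8a described below held, at −0.34 (adjusted p = 0.018), −0.33 (0.0292) and −0.34 (0.0128, edgeR).

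The 37 genes took a large share of liver RNA. Together they held a median of 5.88% of gene counts in the 42 TCDD libraries, from 2.92% to 7.54%, and 6.21% in the 42 vehicle libraries, from 4.53% to 7.91%. The lowest share, 2.92%, was that of the library labelled C57BL6/J TCDD replicate 3, against 5.34% and 5.89% in the other TCDD libraries of its strain. Per kilobase of exon, C3 was the most abundant, at a vehicle mean of 3730 CPM per kb, followed by Vtn (vitronectin) at 2420, Fgg at 1990 and Fga at 1980 CPM per kb. C6 was the least abundant, at 7.14 CPM per kb, then Pros1 (protein S) at 16.9 CPM per kb. In whole liver, fewer cells of a type and less RNA per cell cannot be told apart.

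The first comparison asked what TCDD did to these genes over all strains, as the mean of the 14 within-strain changes. C8a, the alpha chain of the eighth complement component, was lower after TCDD, and 1 of the 37 genes was called, against 0.179% of all genes tested (adjusted p below 0.05, quasi-likelihood test of edgeR). At an unadjusted p below 0.05, 8 of 37 genes passed, 21.6%, against 5.94% of all genes, and all 8 were lower, against 2.6% of all genes lower. The fitted change was below 0 in 30 of the 37 genes, 81.1%, against 51.6% of all genes. Their median change was −0.055 on the log2 scale, against −0.0033 over all genes. By strain, the genes with a fitted change below 0 ran from 8 of 37 in NOD/SHILTJ to 33 in CBA/J. More genes lay above 0 than below in NOD/SHILTJ, CC019/TauUnc, A/J and C3HeB/FeJ. C57BL6/J had 31 genes below 0 and the lowest median of the strains, −0.3, with the library labelled TCDD replicate 3 included.

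**Figure D1:**
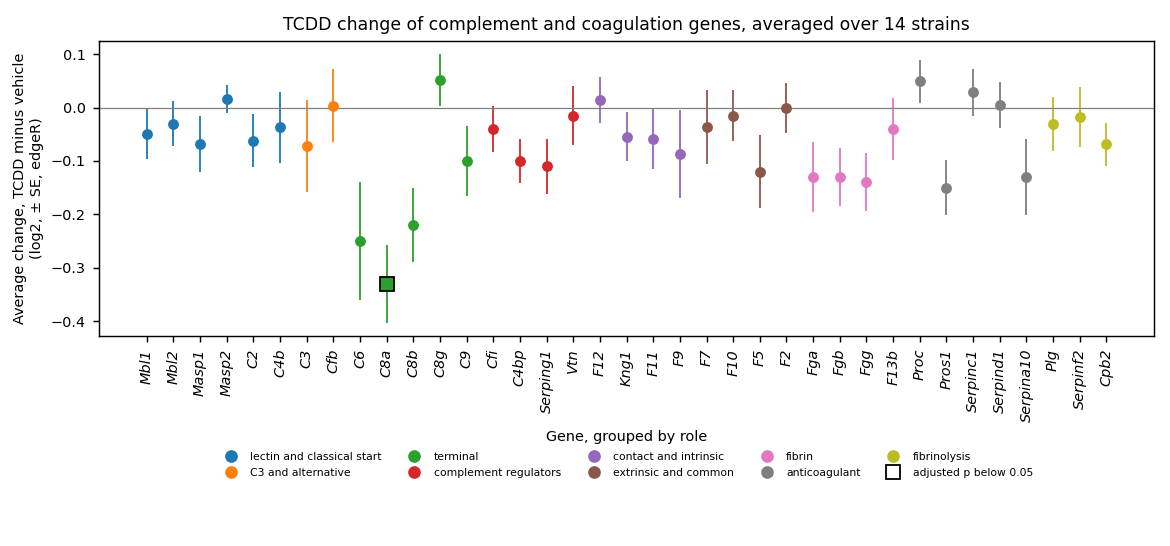
Each point is the log2 change of 1 gene between TCDD and vehicle livers, averaged over 14 strains, with its standard error (edgeR, 84 libraries), and colour marks the gene's role. C8a at −0.33 carries the square of a called gene, C6 at −0.25 and C8b at −0.22 come next, and 30 of the 37 points lie below 0.

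The terminal components held the lowest 3 fitted changes. C8a (ENSMUSG00000035031.9) ranged from 124.4 to 431.4 CPM with a median of 266.6 CPM in TCDD libraries, and from 106.9 to 646.8 CPM with a median of 356.9 CPM in vehicle libraries. The 2 ranges overlapped, and the comparison is made within strains. C8a fell by 0.33 ± 0.073 on the log2 scale (SE, adjusted p = 0.0203, edgeR), and the fitted change was below 0 in 14 of 14 strains, from −0.62 in C3HeB/FeJ to −0.051 in FVB/NJ.

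In 5 strains each TCDD library had less C8a than each vehicle library. A/J had 306, 325 and 404 CPM after TCDD, against 502, 413 and 492 CPM with vehicle. BXD91/2RwwJ had 220, 175.4 and 206.2 CPM after TCDD, against 298.1, 253.6 and 287.1 CPM with vehicle. The others were DBA1/J, C3HeB/FeJ and BXD-40/TyJ. C3HeB/FeJ had 280.2, 413.7 and 239.7 CPM after TCDD, against 423.6, 438.0 and 646.8 CPM with vehicle. Its libraries were split across both treatments in several genes, as described under other observations. The part of that split in the C8a change was not tested. In BALB/CJ the libraries overlapped, with 411, 402 and 420 CPM after TCDD and 441, 410 and 379 CPM with vehicle. No single strain passed the test for C8a, with adjusted p-values of 0.617 or more (edgeR). The average call did not hold in the fit without the 3 BXD lines and CC019/TauUnc, where the change was −0.30 and the adjusted p = 0.42 (edgeR).

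C8b (ENSMUSG00000029656.7), the beta chain that pairs with the alpha chain, lies beside C8a on chromosome 4. It changed by −0.22 ± 0.07 on the log2 scale (adjusted p = 0.407, edgeR) and was lower in 12 of 14 strains, so it did not pass. CBA/J had 181.2, 138.8 and 219.4 CPM of C8b after TCDD, against 226.3, 295.3 and 243.3 CPM with vehicle, with no overlap. NOD/SHILTJ had a fitted change of 0.24, averaging 162.8 ± 49.1 CPM after TCDD and 151.4 ± 2.11 CPM with vehicle (SD, n = 3 each), and its libraries overlapped. C8g, the gamma chain of the same component, encoded on chromosome 2, changed by 0.051 ± 0.049 (adjusted p = 0.957, edgeR). C6, the component that follows C5 in the pore, changed by −0.25 ± 0.11 (adjusted p = 0.754, edgeR) and was lower in 13 strains. With the library labelled C57BL6/J TCDD replicate 3 left out, which held 86.1 CPM of C6 against 21.3 and 18.9 CPM in its group, the change of C6 was −0.33 ± 0.099 (adjusted p = 0.285, edgeR). C9, which forms the ring of the pore, changed by −0.10 ± 0.065 (adjusted p = 0.906, edgeR).

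**Figure D2:**
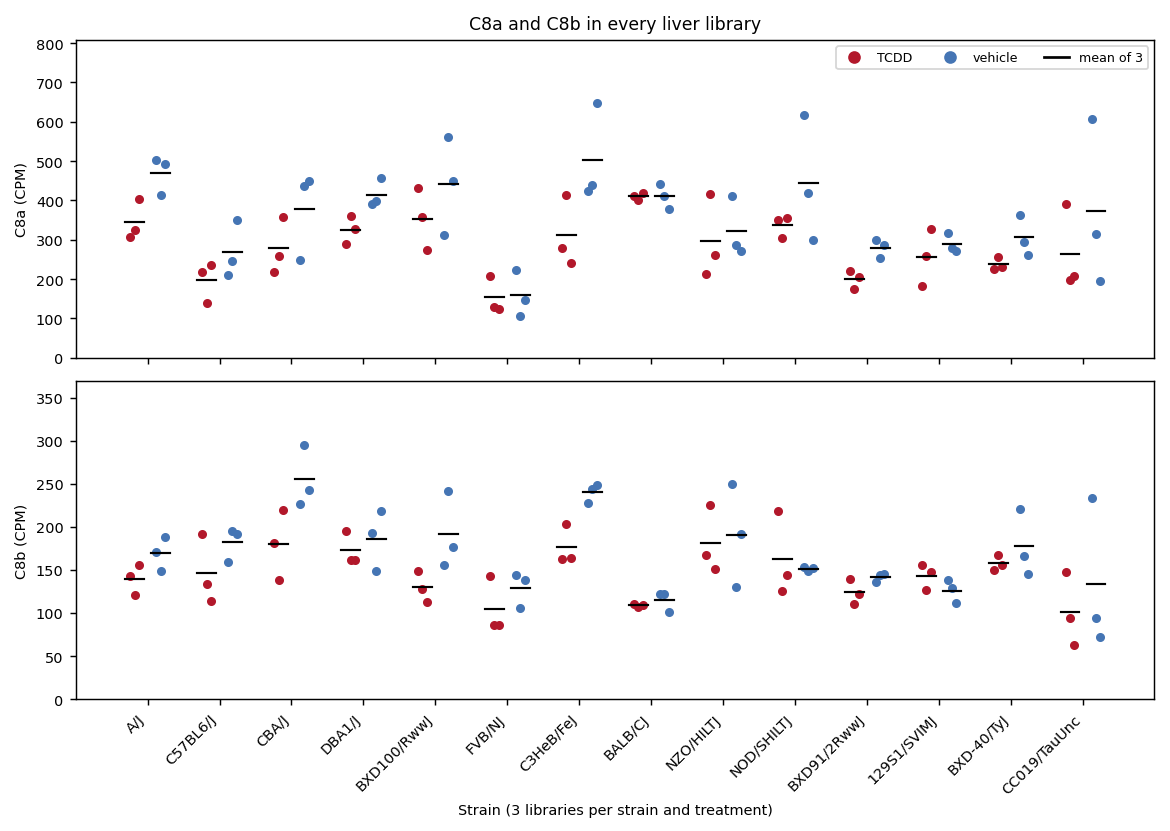
C8a (top) and C8b (bottom) in CPM for each of the 84 libraries, by strain, with TCDD to the left of vehicle and a bar at the mean of 3. C8a in A/J, at 306 to 404 CPM after TCDD, lies wholly below its vehicle libraries at 413 to 502 CPM, and FVB/NJ has the lowest C8a of all strains in both treatments.

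The sequences before the start of C8a and C8b are shown because C8a carries the average call and C8b, its neighbour, has the next smallest p. RefSeq promoters of build GRCm38.p6 were at hand for 28 of the 38 genes, and the 250 bases before the annotated start are printed here on the gene's strand. The C8a sequence lies at chr4:104876399-104876648 on the minus strand and the C8b sequence at chr4:104766067-104766316 on the plus strand. Capitals mark matches, on either strand, to the AHR core GCGTG, the interleukin-6 element CTGGGAA or the STAT element TTCNNNGAA, of which the last and the element before it can overlap.
C8a: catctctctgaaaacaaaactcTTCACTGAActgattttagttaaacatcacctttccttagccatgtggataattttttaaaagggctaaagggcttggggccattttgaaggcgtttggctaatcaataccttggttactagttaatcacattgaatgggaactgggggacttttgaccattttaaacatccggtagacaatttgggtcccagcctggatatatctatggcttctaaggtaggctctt
C8b: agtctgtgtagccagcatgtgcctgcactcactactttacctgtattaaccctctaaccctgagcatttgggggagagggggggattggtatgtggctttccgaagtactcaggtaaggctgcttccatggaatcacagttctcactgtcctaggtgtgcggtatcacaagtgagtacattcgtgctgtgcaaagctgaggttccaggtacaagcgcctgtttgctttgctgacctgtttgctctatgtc
C8a held a STAT match 228 to 220 bases before the start and no AHR core, and C8b held no match to any of the 3. Over 32851 promoters of the same length the AHR core was found in 28.2%, the interleukin-6 letters in 9.1% and the STAT letters in 7.02%. Among the 29 promoter entries of the 28 genes, 4 held the AHR core (Vtn, F11, Fgg and Serpinf2), 4 the interleukin-6 letters and 6 the STAT letters. A match describes letters in this window and is no evidence that a factor binds there.

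Fibrinogen is a hexamer of the chains encoded by Fga, Fgb and Fgg, which lie together on chromosome 3, and none of the genes passed the test. Fgg (ENSMUSG00000033860.7) ranged from 2080 to 5290 CPM with a median of 3680 CPM in TCDD libraries, and from 2690 to 5860 CPM with a median of 4080 CPM in vehicle libraries. Fgb had medians of 3760 CPM in TCDD libraries and 4200 CPM in vehicle libraries, and Fga had medians of 5480 CPM in TCDD libraries and 5860 CPM in vehicle libraries. The fitted changes were close to each other, −0.14 ± 0.054 for Fgg (adjusted p = 0.644, edgeR), −0.13 ± 0.054 for Fgb (0.704) and −0.13 ± 0.066 for Fga (0.843), each below 0 in 10 of 14 strains. In BXD91/2RwwJ Fgg had 4050, 3460 and 4060 CPM after TCDD and 5380, 4320 and 5110 CPM with vehicle, which did not overlap. In C3HeB/FeJ it had 3080, 3330 and 2380 CPM after TCDD and 3660, 3340 and 5860 CPM with vehicle. These did not overlap either, but the nearest values, 3330 and 3340 CPM, were almost equal. The libraries of C3HeB/FeJ were also split across both treatments in several genes, as described under other observations. In the remaining strains the treatments overlapped in Fgg.

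The 3 fibrinogen promoters are shown because the genes share a locus and a known interleukin-6 response. The intervals are chr3:83025903-83026152 (plus strand) for Fga, chr3:83049864-83050113 (minus strand) for Fgb and chr3:83007474-83007723 (plus strand) for Fgg, with capitals as above.
Fga: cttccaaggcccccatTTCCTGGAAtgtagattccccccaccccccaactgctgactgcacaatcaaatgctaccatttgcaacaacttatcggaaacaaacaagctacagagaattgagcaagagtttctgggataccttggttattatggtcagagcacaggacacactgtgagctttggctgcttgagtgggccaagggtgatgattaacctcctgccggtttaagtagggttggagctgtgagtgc
Fgb: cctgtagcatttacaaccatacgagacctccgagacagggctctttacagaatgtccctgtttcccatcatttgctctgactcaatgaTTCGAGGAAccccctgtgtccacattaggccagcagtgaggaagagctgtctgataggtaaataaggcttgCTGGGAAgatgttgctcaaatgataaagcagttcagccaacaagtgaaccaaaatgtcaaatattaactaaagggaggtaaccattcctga
Fgg: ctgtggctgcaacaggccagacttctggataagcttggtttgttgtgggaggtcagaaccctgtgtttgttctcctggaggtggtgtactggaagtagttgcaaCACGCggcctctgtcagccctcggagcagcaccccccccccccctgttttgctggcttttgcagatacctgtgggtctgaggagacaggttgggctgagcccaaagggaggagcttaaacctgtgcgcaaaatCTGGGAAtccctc
The interleukin-6 letters stood 13 to 7 bases before the start of Fgg and 91 to 85 bases before that of Fgb, and the window of Fga held a STAT match and no interleukin-6 match. The AHR core of Fgg lay on the opposite strand.

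Outside the terminal pathway and fibrinogen, no gene passed the average test, and the values below describe those nearest to it or central to their role. Pros1, the cofactor of activated protein C, changed by −0.15 ± 0.051 (adjusted p = 0.439, edgeR) and was lower in 13 strains, with medians of 49.6 CPM in TCDD libraries and 58.5 CPM in vehicle libraries. C4bp, which restrains C4b, changed by −0.10 ± 0.042 (0.749) and was lower in 12 strains. Serping1, the C1 inhibitor, changed by −0.11 ± 0.051 (0.829), and its TCDD libraries lay below the vehicle libraries in 4 strains. The 6 genes that start the lectin and classical pathways had a median change of −0.043, and the largest of them was Masp1, a lectin-bound protease, at −0.068 ± 0.053 (0.934). C3 changed by −0.072 ± 0.086 (0.966) and F2, prothrombin, by −0.0015 ± 0.047 (1.0). Proc, protein C, at 0.049, and Serpinc1, antithrombin, at 0.029, were among the 7 genes with a fitted change above 0.

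The next comparison asked which genes changed with TCDD in single strains. Of 518 pairs of gene and strain, 1 was called, 0.193%, against 0.228% of pairs over all genes. It was Cpb2 (ENSMUSG00000021999.8), a carboxypeptidase that slows fibrin breakdown, in NOD/SHILTJ, where 1.91% of genes were called. Cpb2 had 445.4, 384.1 and 366.3 CPM after TCDD, against 349.7, 272.7 and 256.9 CPM with vehicle, and the groups did not overlap. The change was 0.57 ± 0.15 on the log2 scale (adjusted p = 0.0343, edgeR), and the call did not hold without 5 of the 6 NOD/SHILTJ libraries, left out in turn. Cyp1a1 and Cyp1a2 summed to 488 to 674 CPM after TCDD and 376 to 420 CPM with vehicle in that strain. Marker sums of other liver cells were lower after TCDD in the same libraries, without overlap, at 385.4 to 459.9 CPM against 572.2 to 832.4 CPM for Kupffer cells, 202.5 to 291.7 CPM against 316.5 to 607.2 CPM for sinusoidal endothelium and 106.3 to 161.2 CPM against 200.9 to 460.9 CPM for stellate cells. The mean was lower after TCDD for 8 of 8 markers in each of these lists and for 5 of 6 cholangiocyte markers, and none of these markers was at 0. The 12 hepatocyte markers summed to 85500 to 94100 CPM after TCDD and 81900 to 84000 CPM with vehicle. Their part in the levels of Cpb2 and Mbl2 was not tested. In the authors' deposited table the change of Cpb2 in NOD/SHILTJ was 0.57 with an adjusted p of 0.00803.

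Mbl2 (ENSMUSG00000024863.5), a mannose-binding lectin, was higher after TCDD in the same libraries without passing. NOD/SHILTJ had 971, 911 and 898 CPM of Mbl2 after TCDD, against 685, 702 and 774 CPM with vehicle, a change of 0.49 ± 0.16 (adjusted p = 0.0792, edgeR). In C57BL6/J Mbl2 had 625 and 762 CPM after TCDD, while the library labelled TCDD replicate 3 had 419 CPM, against 837, 907 and 900 CPM with vehicle, a change of −0.55 ± 0.16 (0.112). Both sets of libraries were apart from their vehicle, in opposite directions. The authors' deposited table gave adjusted p-values for Mbl2 of 0.0355 in NOD/SHILTJ and 0.0496 in C57BL6/J, with log2 changes of 0.49 and −0.53, and held no further pair of these genes below 0.05. The test for a strain by TCDD interaction called 0 of 37 genes, against 0.0309% of all genes (edgeR). DESeq2 also called 0, against 0.984% of all genes called by DESeq2. At an unadjusted p below 0.05 edgeR gave 3 of 37 genes, 8.11%, against 8.53% of all genes. These were Mbl2 (adjusted p = 0.344), Cpb2 (0.453) and F7, factor VII (0.561). In simulated data the edgeR interaction test recovered 3.12% of log2 changes of 1 given to 1 strain, and 62.8% of changes of 2. The 0 calls therefore do not show that the TCDD change is alike in all strains.

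**Figure D3:**
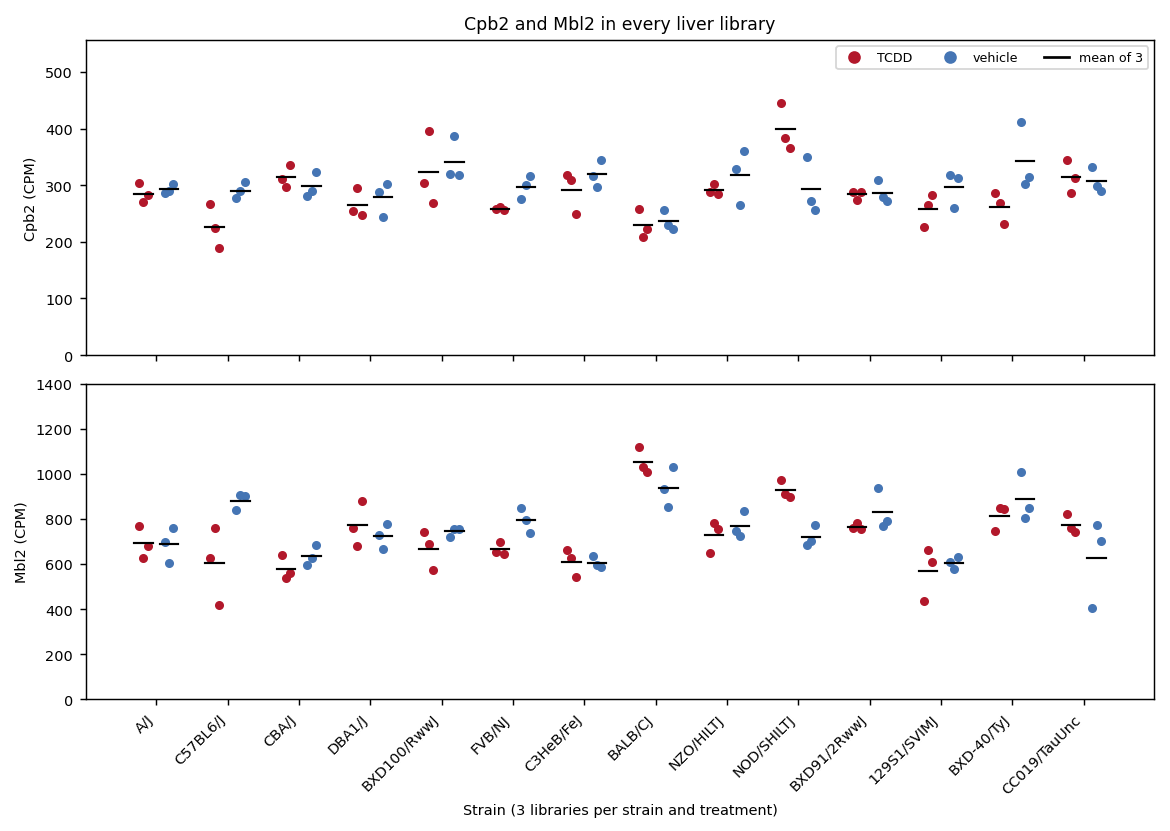
Cpb2 (top) and Mbl2 (bottom) in CPM for each library, by strain, with TCDD to the left of vehicle and a bar at the mean of 3. NOD/SHILTJ lies higher after TCDD in both genes, at 366.3 to 445.4 CPM of Cpb2 against 256.9 to 349.7 CPM with vehicle, and C57BL6/J lies lower in both in its libraries labelled TCDD, the lowest Mbl2 of which, 419 CPM, is that of replicate 3.

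In C57BL6/J, 10 of the 37 genes had each library labelled TCDD below each vehicle library, 27%, against 3.25% of all genes, and 0 had them above, against 4.02% of all genes. Among the 10 were Mbl1, Mbl2, Masp1, Kng1 (kininogen), F7 and Plg (plasminogen). The library labelled TCDD replicate 3 was the lowest for 9 of the 10, and over the 37 genes it was the lowest of the 6 libraries of the strain for 23. With that library left out, 12 genes had TCDD below vehicle, 32.4%, against 6.69% of all genes. C3 stood at 17600 and 17400 CPM after TCDD, at 2910 CPM in replicate 3 as labelled, and at 16800, 20500 and 18400 CPM with vehicle. Without that library the change of Mbl2 in C57BL6/J was −0.37 ± 0.17 and that of Mbl1 −0.50 ± 0.20 (adjusted p = 1.0 and 0.887, edgeR). BXD-40/TyJ had 11 genes with TCDD below vehicle, 29.7%, against 12.0% of all genes. Without its vehicle replicate 1 the count was again 11, against 15.3% of all genes, and with all libraries 3 genes had TCDD above vehicle, against 11.9% of all genes. NOD/SHILTJ had 4 with TCDD above vehicle, 10.8%, against 5.92% of all genes, and 3 below, 8.11%, against 17.8% of all genes. TCDD lay below vehicle for 7 genes in FVB/NJ and for 7 in BXD91/2RwwJ, 18.9% in each, against 6.04% and 5.52% of all genes, and for 5 in C3HeB/FeJ, 13.5%, against 3.6% of all genes. It did so for 5 genes in A/J, 4 in CBA/J and 3 in 129S1/SVIMJ, against 9.64%, 4.67% and 3.18% of all genes. The count was 2 in DBA1/J, 2 in BXD100/RwwJ and 1 in NZO/HILTJ, against 3.0%, 4.5% and 3.09% of all genes, and 0 in BALB/CJ and CC019/TauUnc, against 3.57% and 3.1%. TCDD lay above vehicle for 1 gene in CC019/TauUnc, 1 in FVB/NJ, 3 in A/J and 2 in BALB/CJ, against 4.01%, 5.29%, 4.17% and 8.24% of all genes. The count above was 0 in CBA/J, 129S1/SVIMJ, NZO/HILTJ and BXD91/2RwwJ, against 9.17%, 8.02%, 4.11% and 3.87% of all genes. It was also 0 in DBA1/J, BXD100/RwwJ and C3HeB/FeJ, against 3.4%, 3.27% and 2.33% of all genes.

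Baseline levels were compared next. Under vehicle, 23 of 37 genes differed among the 14 strains, 62.2%, against 46.8% of all genes (13-degree-of-freedom test of edgeR, adjusted p below 0.05). All 5 terminal components passed, 5 of the 6 lectin and classical starters and 3 of the 4 contact and intrinsic genes, while 1 of 3 fibrinolysis genes did. The range between the highest and lowest strain mean was widest for C6, at 2.9 on the log2 scale, then C4b at 2.60, C8a at 1.77, C9 at 1.71, C8b at 1.37, F11 at 1.11 and C8g at 1.02. The median range of the 37 genes, 0.78, was below that of all genes, 1.12. Serpinf2, the plasmin inhibitor, had the narrowest range, 0.23. Of the variance in log2 CPM, strain held a median of 43.2% in the 37 genes, TCDD 0.818%, their interaction 9.71% and differences within groups 40.3%. Over all genes tested the medians were 34.6% for strain, 0.401% for TCDD, 11.4% for the interaction and 51.0% within groups. A factor with 14 levels takes up more variance than one with 2, so the shares of strain and TCDD are not on 1 footing.

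Each strain was then set against the other 13. The 18 libraries of the BXD lines had 3.74% to 4.35% of reads aligned to more than 1 place, against 7.8% to 10.2% for the 66 libraries of the remaining strains. Under vehicle this gave 46 calls over the 518 pairs of gene and strain, 8.88%, against 8.94% of pairs over all genes. Of the 46, 13 held when each of the strain's own vehicle libraries was left out in turn, and the same 13 held under each other alternative in which the strain was fitted. They were C4b in 3 strains, C6, C9, Mbl1 and Fgb in BALB/CJ, C9 and C8b in CBA/J, C6 in CC019/TauUnc, C8a in FVB/NJ, F12 in A/J and Masp2 in 129S1/SVIMJ.

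C4b (ENSMUSG00000073418.4) encodes complement C4, cleaved when the classical and lectin pathways start, and its gene lies in the H-2 region of chromosome 17. It was lowest in CBA/J, with 181.4, 266.7 and 307.3 CPM after TCDD and 256.5, 241.8 and 164.3 CPM with vehicle. C3HeB/FeJ followed, with 221, 413 and 228 CPM after TCDD and 258, 230 and 426 CPM with vehicle. All other libraries had 538 CPM or more except the library labelled C57BL6/J TCDD replicate 3, at 367 CPM. Against the other 13 strains under vehicle, C4b was lower by −1.84 ± 0.22 in CBA/J (adjusted p = 7.13e-10, edgeR) and by −1.46 ± 0.21 in C3HeB/FeJ (2.5e-07). Both strains carry the k haplotype of H-2, long known for low C4 in plasma, and its part in these levels was not tested. NOD/SHILTJ was highest under vehicle, with 1270, 939 and 1410 CPM after TCDD and 1640, 1720 and 1400 CPM with vehicle, 0.93 ± 0.17 above the other 13 under vehicle (2.36e-05). C4a, a near-identical neighbour, can share reads with C4b, so the split between them is uncertain. C4a stood at 6.96 to 14.7 CPM in CBA/J and 1.04 to 3.14 CPM in BALB/CJ, and was highest in NZO/HILTJ, at 28.4 to 79.5 CPM.

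**Figure D4:**
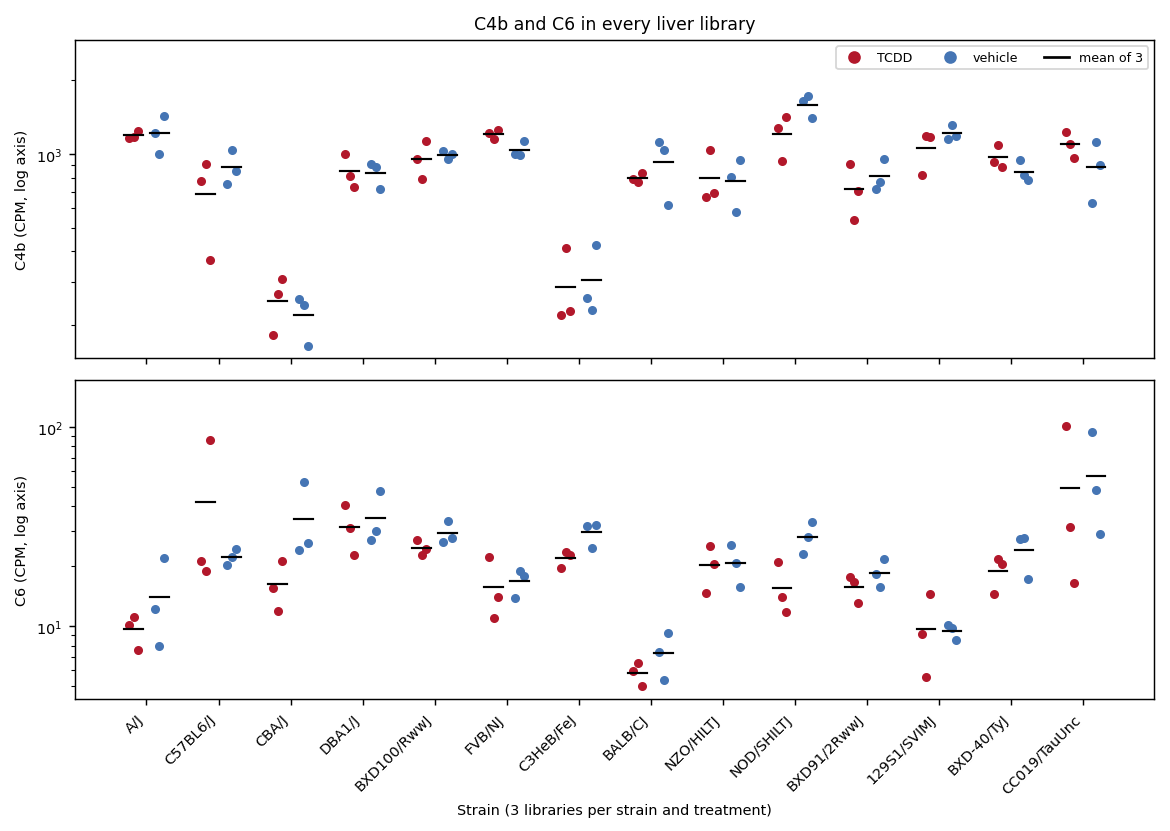
C4b (top) and C6 (bottom) in CPM on log axes for each library, by strain, with TCDD to the left of vehicle and a bar at the mean of 3. C4b in CBA/J and C3HeB/FeJ lies at 164 to 426 CPM, and C6 is lowest in BALB/CJ, at 5.01 to 9.29 CPM, and highest in CC019/TauUnc.

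C6 (ENSMUSG00000022181.9) and C9 (ENSMUSG00000022149.9), both on chromosome 15, were low in the same pair of strains. BALB/CJ had 5.96, 6.53 and 5.01 CPM of C6 after TCDD and 7.46, 5.39 and 9.29 CPM with vehicle, −1.76 ± 0.35 against the other 13 under vehicle (adjusted p = 0.000239, edgeR). 129S1/SVIMJ had 9.17, 5.59 and 14.5 CPM after TCDD and 10.1, 9.80 and 8.51 CPM with vehicle, −1.26 ± 0.34 (0.00955). CC019/TauUnc was highest and spread widely, with 101, 31.3 and 16.4 CPM after TCDD and 93.8, 48.0 and 29.1 CPM with vehicle, 1.52 ± 0.25 (6.3e-06), and 0.96 ± 0.31 (0.0412) without vehicle replicate 1. C9 stood at −1.01 ± 0.20 in BALB/CJ (0.000135), −0.83 ± 0.19 in 129S1/SVIMJ (0.00198) and 0.83 ± 0.17 in CBA/J (0.000133). The BALB/CJ libraries had 123 to 159 CPM of C9, and the CBA/J libraries 292 to 446 CPM, with no overlap. Each C6 and C9 call in 129S1/SVIMJ was lost without 2 of its 3 vehicle libraries, left out in turn.

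The strain with the lowest level was not the same for C8a and C8b, and the difference between their patterns was not tested. FVB/NJ had the least C8a, with 206.8, 129.3 and 124.4 CPM after TCDD and 223.9, 106.9 and 145.5 CPM with vehicle, −1.22 ± 0.23 against the other 13 under vehicle (adjusted p = 6.72e-05, edgeR). C8b in FVB/NJ was −0.39 ± 0.20 against the other 13 (0.295). C8b was lowest under vehicle in BALB/CJ, at 121.8, 122.4 and 100.7 CPM, where C8a was 0.20 ± 0.20 above the other 13 (0.682). CBA/J was highest in C8b under vehicle, 0.83 ± 0.18 above the other 13 (0.000354). C8g was high in CBA/J, 0.64 ± 0.13 (0.000148), and low in NOD/SHILTJ, −0.48 ± 0.14 (0.0142), calls lost without 1 vehicle library of CBA/J and without either of 2 of NOD/SHILTJ.

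On the coagulation side, strain held 77.7% of the variance of F12 (ENSMUSG00000021492.9), the contact factor XII. A/J averaged 429 ± 18.1 CPM after TCDD and 404 ± 33.9 CPM with vehicle, and BALB/CJ 397 ± 11.3 CPM after TCDD and 435 ± 40.5 CPM with vehicle (SD, n = 3 each). NOD/SHILTJ averaged 807 ± 115 CPM after TCDD and 803 ± 20.4 CPM with vehicle, and FVB/NJ 746 ± 29.3 CPM after TCDD and 736 ± 17.6 CPM with vehicle. F12 was lower under vehicle in A/J by −0.57 ± 0.12 (adjusted p = 0.000717, edgeR), in BALB/CJ by −0.52 ± 0.12 (0.00282) and in C3HeB/FeJ by −0.44 ± 0.12 (0.0152). It was higher in NOD/SHILTJ by 0.39 ± 0.11 (0.0132) and in FVB/NJ by 0.36 ± 0.11 (0.0411). F11, factor XI, was lowest in CC019/TauUnc, at 30.96 ± 8.73 CPM after TCDD and 37.89 ± 9.08 CPM with vehicle (SD, n = 3 each), −0.69 ± 0.17 under vehicle (0.00248). It was highest under vehicle in DBA1/J, at 0.53 ± 0.15 above the other 13 (0.0198), where the value without vehicle replicate 3 was 0.23 (0.716). Pros1 stood at 0.43 ± 0.13 in BXD100/RwwJ (0.044), and the call was lost without any of that strain's 3 vehicle libraries. Proc stood at 0.60 ± 0.10 in CBA/J (1.01e-05), and at 0.38 ± 0.12 (0.06) without vehicle replicate 1. The F12 call in A/J held without each of its vehicle libraries, with −0.49 (0.0287) without replicate 2. The other F12 calls were lost without any of 3 libraries in NOD/SHILTJ and in FVB/NJ, without either of 2 in C3HeB/FeJ and without 1 in BALB/CJ. The F11 call in CC019/TauUnc was lost without 1.

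BALB/CJ had low levels in genes of several roles. It had 9 calls under vehicle, 24.3% of 37 genes, against 7.76% of all genes, and all 9 were lower. Of the 37 genes in this strain, 26 had a fitted difference below 0 and 11 above 0. Leaving out 1 of its vehicle libraries gave 6, 5 and 4 calls. The 9 were C6, C8b and C9 of the terminal pathway, Mbl1 of the lectin pathway, F12 and Kng1 of the contact system (Kng1 can share reads with Kng2 and is uncertain), Fgb and Fgg of fibrinogen, and Cpb2. Mbl1, the other mannose-binding lectin, averaged 146.8 ± 20.7 CPM after TCDD and 129.5 ± 7.07 CPM with vehicle in BALB/CJ (SD, n = 3 each), −0.61 ± 0.14 under vehicle (adjusted p = 0.00114, edgeR). Fgb averaged 3230 ± 230.0 CPM after TCDD and 2920 ± 42.8 CPM with vehicle, −0.62 ± 0.16 (0.00462). Mbl2 was at its highest in the same strain, with 1120, 1030 and 1010 CPM after TCDD and 935, 853 and 1030 CPM with vehicle, and did not pass under vehicle (0.30 ± 0.11, adjusted p = 0.0913). CBA/J, with 6 higher and 2 lower calls, had 21.6% of the genes called, against 20% of all genes. C3HeB/FeJ also had 6 higher and 2 lower calls, 21.6%, against 7.14% of all genes, and held 7, 3 and 1 calls without vehicle replicates 1, 2 and 3.

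The strain differences were compared with those in the TCDD libraries, which are separate livers of the same strains. Of the 46 vehicle calls, 45 had the same sign under TCDD, 97.8%, against 92.0% of vehicle calls over all genes. In 28, 60.9%, the difference was called with the same sign under TCDD, against 46.8% over all genes. C4b stood at −1.73 ± 0.21 in CBA/J and −1.45 ± 0.21 in C3HeB/FeJ under TCDD (adjusted p = 4.32e-09 and 2.77e-07, edgeR). C6 in CC019/TauUnc was 1.53 ± 0.26 above the other 13 under TCDD (7.33e-06), and C8a in FVB/NJ was at −0.92 ± 0.22 (0.00282). The exception in sign was C6 in CBA/J, at −0.13 ± 0.31 under TCDD (0.899) and 0.84 ± 0.27 under vehicle (0.0217), where it was 0.50 (0.326) without vehicle replicate 2 and 0.98 (0.0744) without replicate 1. CBA/J had 15.6, 12.0 and 21.3 CPM of C6 after TCDD, against 24.1, 53.0 and 26.3 CPM with vehicle.

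Under TCDD there were 70 calls over the 518 pairs, 13.5%, against 8.44% of pairs over all genes. C3HeB/FeJ held 19 of them, 17 higher and 2 lower, 51.4% of the 37 genes, against 14.7% of all genes. That count was 3 without TCDD replicate 1, 25 without replicate 2 and 5 without replicate 3. The libraries of this strain were split across both treatments in several genes, as described under other observations. NOD/SHILTJ held 9, all higher, against 8.73% of all genes, and held 4 without TCDD replicate 1, 9 without replicate 2 and 2 without replicate 3. BALB/CJ held 9 as well, 8 lower and 1 higher, 24.3%, against 10.5% of all genes, and held 5, 6 and 6 without TCDD replicates 1, 2 and 3. C57BL6/J held 8, 6 lower and 2 higher, against 14.5% of all genes, and without the library labelled TCDD replicate 3 it held 2 or, with the spread fitted anew, 1, F11, at −0.90 ± 0.21 (adjusted p = 0.00256, edgeR).

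**Figure D5:**
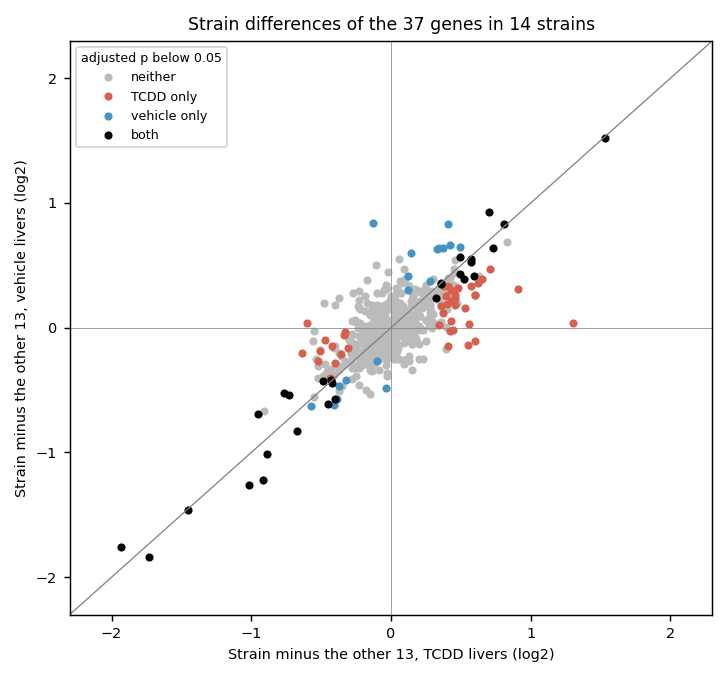
Each point is 1 gene in 1 strain, with the log2 difference of that strain from the other 13 in TCDD livers on the horizontal axis and in vehicle livers on the vertical axis; the diagonal marks equal differences. The 28 pairs called with the same sign in both treatments include C4b in CBA/J at −1.73 and −1.84 and C6 in CC019/TauUnc at 1.53 and 1.52.

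The other genes of both pathways were read from lists. Of 23 other complement genes tested, 0 passed for the average TCDD change and 18 differed among strains under vehicle, 78.3%, and of 23 other coagulation genes 0 passed and 12 differed, 52.2%, against 46.8% of all genes (edgeR). At an unadjusted p below 0.05 edgeR gave 1 of the complement genes and 0 of the coagulation genes, against 5.94% of all genes, and DESeq2 called 0 of either list and gave 2 and 1. The 1 of edgeR was Hc, which encodes C5 and is named here after its values were seen, at −0.21 ± 0.075 (adjusted p = 0.547, edgeR). Hc ranged from 97.7 to 314 CPM in A/J, FVB/NJ, NOD/SHILTJ, BXD100/RwwJ, BXD-40/TyJ and CC019/TauUnc, and from 268 to 1040 CPM in the other strains, so the ranges overlapped slightly. A frameshift allele that removes C5 is known in A/J, FVB/NJ, NOD and DBA/2J mice, and DBA/2J is a parent of the BXD lines. No Hc genotype is labelled, and the part of the allele in these levels was not tested. Tfpi, the tissue factor pathway inhibitor, ranged over 3.79 on the log2 scale among vehicle means, highest in FVB/NJ and lowest in DBA1/J (adjusted p = 2.75e-05, edgeR). C4a ranged over 4.84 (7.38e-11), and Cfd, factor D of the alternative pathway, over 4.67 (2.13e-07), with a median of 0.0547 CPM over all libraries. The highest mean of Cfd, in BXD-40/TyJ, rests on the 97.6 CPM of vehicle replicate 1, the library with the highest adrenal cortex markers, against 0.621 and 0 CPM in its other vehicle libraries. Serpina5, the protein C inhibitor, ranged over 3.72 (0.000578) with a median of 0 CPM. C1qa, C1qb and C1qc, the chains of C1q, which macrophages make, ranged over 2.46, 2.20 and 2.71, each lowest in CC019/TauUnc. The 8 Kupffer cell markers summed to 128.4, 160 and 180.4 CPM in the vehicle libraries of that strain, against a vehicle median of 462 CPM over all strains, and their part in the C1q levels was not tested.

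Genes that regulate liver expression of these proteins were listed too. None of 20 was called for the average change by edgeR or DESeq2, and 4 passed in either at an unadjusted p below 0.05, 20% of the list by edgeR, against 5.94% of all genes. Socs3, a feedback inhibitor of interleukin-6 signalling, changed by −0.39 ± 0.13 (adjusted p = 0.472, edgeR), and Osmr, the oncostatin M receptor, by −0.31 ± 0.11 (0.547). Ppara, a nuclear receptor for fatty acids, changed by −0.17 ± 0.067 (0.673), and Nr1i3, the receptor CAR, by 0.25 ± 0.081 (0.423). Hnf4a, at −0.056 ± 0.063 (0.963), and Stat3, at −0.073 ± 0.071 (0.959), did not pass. In single strains Ppara was called in NOD/SHILTJ, where it fell by 1.02 after TCDD (adjusted p = 0.0257, edgeR), a strain where 1.91% of all genes were called.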

How the data were processed

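Total liver RNA, with an RNA integrity number of at least 7, was made into libraries with a NEBNext Ultra RNA kit, which does not mark strand, so a gene and an overlapping antisense gene cannot be told apart. The authors deposited raw read counts per gene for each library. The submitters' processing notes name FastQC 0.11.5, Trimmomatic 0.38, Bowtie2, HTSeq 0.6.1, DESeq2 and build mm9. Rows that name no gene held 46.7% to 52.6% (no feature), 0.442% to 1.41% (ambiguous) and 3.74% to 10.2% (not uniquely aligned) of reads. The authors also deposited a table of log2 fold changes and p-values for TCDD against vehicle in each strain.

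Symbols came from that table. The members, lists and tests were chosen with earlier results of these data known. The count test of edgeR 4.0.16 in R 4.3.3 (TMM scaling, filterByExpr, robust quasi-likelihood) was fitted to 84 libraries in 28 groups. Contrasts were the mean of 14 within-strain changes, each change alone, a 13-degree-of-freedom strain by TCDD test, the strain test among vehicle groups, and each strain against the other 13. Benjamini-Hochberg adjustment ran over all 16195 genes, and a call is an adjusted p below 0.05. CPM values divide by the total gene counts. ± after a log2 value is a standard error. Named genes were those called, the 6 with the smallest p in the average, the 10 with the widest vehicle range, and 2 per strain with the smallest p against the other 13, and of the listed genes the 6 with the widest vehicle range, not all of which are reported here. C3, F2, Serpinc1, F9, F13b, Hc, Ppara, C1q and other genes outside this rule were named for their role or level after their values were seen. Alternatives were other scalings, no filter, DESeq2 1.42.0, each library left out in turn, 1 or 3 libraries or 4 strains set aside, and each strain alone. The scripts were tested on simulated data. Promoters came from RefSeq, GRCm38.p6. Gene counts per library of 9122406 to 19689624 set the counting precision, and each group has 3 libraries.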

Additional observations from a re-analysis of the deposited data

How the results depend on the processing

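The call of C8a in the average comparison held without each of the 84 libraries in turn (−0.36 to −0.295) and under other scalings, no filter and DESeq2. With CC019/TauUnc and the 3 BXD lines left out, 0 of the 37 were called, where 5 of all genes were called against 29, and the cause was not tested. Calls within single strains, 1 in the fit reported, were 0 with no filter on low counts and 0 with each strain alone, and 2 under DESeq2, 2 with C57BL6/J TCDD replicate 3, as labelled, left out and 2 without 3 libraries that stand apart; Mbl2 in NOD/SHILTJ was the added gene in these 3. Leaving out single libraries gave 0 to 5 such calls, with 5 without C3HeB/FeJ TCDD replicate 2, where F9 (−1.29), F13b (−0.75), F7 (0.87) and F10 (0.61) were added. That fit kept TCDD replicates 1 and 3, which share the lowest F9 and F13b with vehicle replicate 2. The changes of F9 and F13b cannot be told apart from the split of these libraries described below. Over all alternatives the genes with a fitted average below 0 numbered 27 to 32, the genes called in the vehicle strain test 17 to 27, and the calls of each strain against the other 13 ran from 38 to 56 under vehicle and 53 to 79 under TCDD. No result reversed. For the 48 calls of single genes, 238 of the values with a library left out kept the call and 68 lost it, and 28 values under other settings lost it. The counts of genes with TCDD below vehicle without overlap, left-out fits chosen after seeing the data, were 12 in C57BL6/J without TCDD replicate 3 and 11 in BXD-40/TyJ without vehicle replicate 1. No paired analysis was possible because the replicate numbers are in accession order and pair no libraries.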

Other observations

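The libraries of C3HeB/FeJ were split across both treatments in several coagulation genes, which were picked after their values were seen. F9, factor IX, had 35.91, 173.1 and 47.95 CPM after TCDD and 161.2, 37.06 and 168.8 CPM with vehicle. F13b, a carrier of factor XIII, had 57.7, 170 and 62.8 CPM after TCDD and 156, 48.9 and 156 CPM with vehicle. TCDD replicates 1 and 3 and vehicle replicate 2 had the lowest values of both genes among the 84 libraries. C3 had 29100, 15200 and 29000 CPM after TCDD and 16200, 34500 and 21600 CPM with vehicle, and was highest in the same libraries. Cyp1a1 and Cyp1a2 summed to 4550, 4820 and 9190 CPM after TCDD and 487, 612 and 326 CPM with vehicle, so these genes followed the treatment labels.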
